A study of Mus musculus with 2 samples.

Results

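De novo lipogenesis makes fatty acids from carbohydrate, and 10 genes of this pathway were read here in whole liver: the enzymes Acly, Acaca, Acacb, Fasn, Me1, Elovl6 and Scd1, and the regulators Srebf1, Mlxipl and Thrsp. The genes were chosen by name, as those whose symbol the platform's probe annotation pairs with a probe. All 10 were found, each with 1 probe, among 19318 genes named on the array, and all 10 gave signal above background on both arrays, as did 14143 genes in all. The samples were total RNA of liver from 24-week-old mice on 2 single-colour microarrays. The control liver had the genotype Twist2-Cre, with nothing further said of its A20 alleles, and the other liver had the genotype Twist2-Cre/A20fl/fl, here called CKO. Both genotypes carry the Twist2-Cre allele, which recombines floxed sequence in mesenchymal lineages, whereas hepatocytes, the main site of lipogenesis in liver, arise from endoderm. Tnfaip3 encodes A20, which edits ubiquitin chains and thereby limits NF-kB signalling. How many animals gave each RNA is not stated in the sources used here. With 1 array per genotype there was no replicate and no test, and every value describes these 2 arrays, whose number limits the precision.

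In the cytosol, ATP citrate lyase turns citrate into acetyl-CoA, acetyl-CoA carboxylase makes malonyl-CoA from it, and fatty acid synthase joins these units into palmitate with reducing power from NADPH. Elongation and desaturation then give stearate, palmitoleate and oleate for storage and export as triglyceride. In liver the pathway is driven by insulin through the transcription factor SREBP-1c, encoded by Srebf1, and by carbohydrate through ChREBP, encoded by Mlxipl.

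All 10 genes had a lower level in the CKO liver than in the control liver. On the normalized scale their median log2 ratio of CKO over control was -0.49, with single genes between -1.02 and -0.10, beside a median of -0.02 for all genes above background. This scale adds an offset of 50 to each intensity before taking log2, so it shrinks the differences of dim genes. A ratio below 0 was found in 57.7% of all genes. Of the 10 genes, 3 (Thrsp, Fasn and Me1) were at least 1.5-fold lower, as were 0.417% of all genes, and 1 (Thrsp) was at least 2-fold lower, as were 0.0778% of all genes. In the deposited intensities as they stand, all 10 were lower (53.6% of all genes), 6 were at least 1.5-fold lower (3.63% of all genes) and 2, Thrsp and Fasn, at least 2-fold lower (0.728% of all genes). The count at least 1.5-fold lower was 4 once the medians of the deposited arrays were made equal (3.12% of all genes). It was 3 with plain subtraction of the blank mean and no offset (1.57% of all genes). In bulk tissue, fewer cells of a type and less RNA per cell cannot be told apart.

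**Figure D1:**
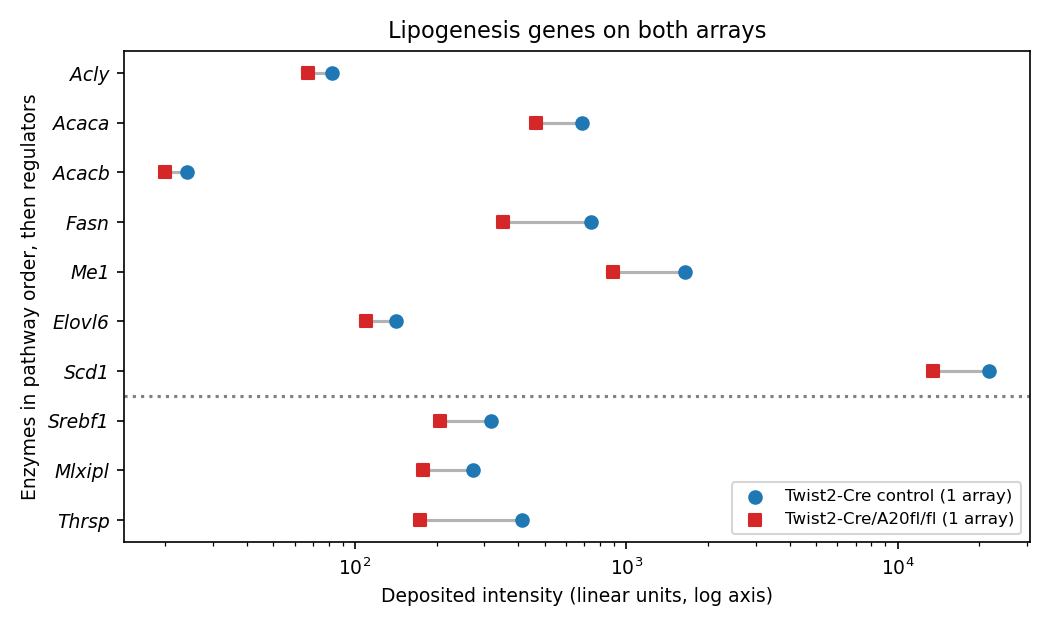
Deposited intensity (linear units on a log axis) of the 10 lipogenesis genes in control (blue circles) and CKO liver (red squares), 1 array each, with the enzymes in pathway order above the dotted line and the regulators under it. The CKO value lies left of the control value for each gene, with the widest gaps at Thrsp (412 and 174) and Fasn (744 and 351).

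Acly, the ATP citrate lyase that opens the pathway, was read by probe M200005104. Its deposited intensity was 82 in control and 67 in CKO liver, and its log2 ratio was -0.18. That difference was small: the 707 genes of its level class had ratios that spread by 0.16 (scaled median absolute deviation), and 17.1% of them had a ratio as low or lower.

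The next step belongs to the acetyl-CoA carboxylases, of which Acaca encodes the cytosolic form and Acacb the form at the mitochondrial outer membrane, whose malonyl-CoA restrains the carnitine transferase Cpt1a. Acaca (probe M300009373) had deposited intensities of 688 and 463 in control and CKO liver, a log2 ratio of -0.47. Acacb (probe M300013468) was dim, with 24 and 20, and had the ratio nearest to 0 of the 10 genes, -0.10. Acacb lay 1.06 spreads of its level class from 0, with 18.2% of those 707 genes as low or lower, and Acaca lay 2.26 spreads from 0, with 3.11% of its class as low or lower. The array shows unequal ratios for the paralogs but gives no test of the difference between them.

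Fasn, the multienzyme that builds palmitate, had the largest difference among the enzymes. Its probe M200001441 read 744 in control and 351 in CKO liver, 47.2% of the control value, and its log2 ratio was -0.95. This was the 13th lowest ratio of 14143 genes, and 3 of the 707 genes of its level, itself included, were as low or lower.

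Me1, the cytosolic malic enzyme that supplies NADPH to Fasn, came next. Probe M300018116 read 1641 and 893 in control and CKO liver, and the log2 ratio was -0.79, the 26th lowest of all genes. Fasn and Me1 stood farther from 0 than the other 5 enzymes, and their CKO values were 47.2% and 54.4% of control in the deposited intensities.

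The enzymes that act on finished palmitate had ratios nearer 0 than Fasn and Me1 on the normalized scale, though not with the local background column, where Scd1 (-1.01) was lower than Me1 (-0.41). Elovl6, the elongase that extends palmitate to stearate, had deposited intensities of 142 and 110 (probe M200005251) and a log2 ratio of -0.26. Scd1, the stearoyl-CoA desaturase that makes oleate and palmitoleate, read 21634 and 13480 (probe M200009317), with a log2 ratio of -0.56. Scd1 belongs to a family of close paralogs whose transcripts a probe may share. Its paralog Scd2 had similar values on both arrays (31 and 33, log2 ratio 0.04), and Scd3 was not above background on either. The Scd1 spot was below the brightest spot of each array (47899 and 45949). That comparison cannot show whether signals were compressed at the level of Scd1, which was not tested.

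Among the regulators, Srebf1 and Mlxipl had nearly the same ratio. Srebf1 (probe M200013337) had deposited intensities of 317 and 206, 65.0% of control in the CKO liver, and a log2 ratio of -0.51. Mlxipl (probe M200007518) had 272 and 178, 65.4% of control, and a log2 ratio of -0.48. Only 1.56% and 1.98% of genes of their levels were as low or lower. SREBP-1a and SREBP-1c start from different first exons of Srebf1, and ChREBP also has forms with different starts. The sources used here do not say which part of each transcript the probe reads, so the forms could not be told apart.

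Thrsp, a small thyroid hormone-responsive protein of lipogenic tissues, had the lowest ratio of the 10. Its deposited intensity was 412 in control and 174 in CKO liver (probe M200006081), 42.2% of control, and its log2 ratio was -1.02, the 8th lowest of 14143 genes. No gene among the 707 of its level was lower. Mid1ip1, a relative of Thrsp that promotes the polymerization of acetyl-CoA carboxylase, had deposited intensities of 122 and 55 and a log2 ratio of -0.74.

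**Figure D2:**
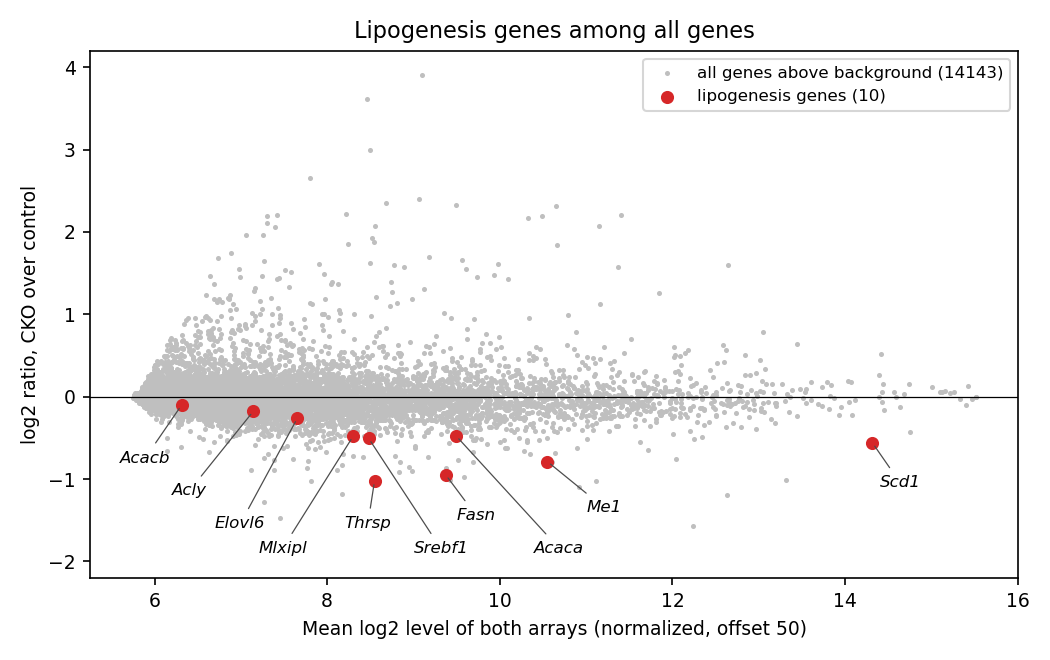
Log2 ratio of CKO over control against the mean log2 level of both arrays (normalized scale with an offset of 50) for 14143 genes above background (grey) and the 10 lipogenesis genes (red). All 10 red points lie below 0, from Acacb at -0.10 to Thrsp at -1.02, and Acly, Acacb and Elovl6 lie within the grey band while Thrsp, Fasn and Me1 lie at its lower edge.

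The genes with the largest ratios (Fasn, Thrsp) and those with the smallest among the 10 (Acly, Acacb) are shown with the 250 bases before their transcription start, since the 10 genes were lower together. The sequences are from RefSeq (GRCm38.p6), 5′ to 3′ on the strand of the gene, at chr11:120824548-120824797 (minus strand) for Fasn, chr7:97417551-97417800 (minus) for Thrsp, chr11:100528001-100528250 (minus) for Acly and chr5:114165268-114165517 (plus) for Acacb. Capitals mark the CCAAT box, bound by NF-Y, a partner of SREBP (CCAAT or its reverse complement), and the GC box, bound by Sp1 (GGGCGG or its reverse complement).
Fasn: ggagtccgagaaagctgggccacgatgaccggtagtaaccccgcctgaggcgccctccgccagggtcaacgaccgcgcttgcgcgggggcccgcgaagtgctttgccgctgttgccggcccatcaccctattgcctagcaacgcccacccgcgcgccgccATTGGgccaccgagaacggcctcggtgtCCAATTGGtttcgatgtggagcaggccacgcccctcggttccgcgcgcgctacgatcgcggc
Thrsp: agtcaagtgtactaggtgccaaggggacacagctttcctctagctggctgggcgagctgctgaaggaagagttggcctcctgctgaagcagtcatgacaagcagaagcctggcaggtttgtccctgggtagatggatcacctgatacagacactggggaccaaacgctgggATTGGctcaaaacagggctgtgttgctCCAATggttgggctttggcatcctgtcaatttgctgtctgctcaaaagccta
Acly: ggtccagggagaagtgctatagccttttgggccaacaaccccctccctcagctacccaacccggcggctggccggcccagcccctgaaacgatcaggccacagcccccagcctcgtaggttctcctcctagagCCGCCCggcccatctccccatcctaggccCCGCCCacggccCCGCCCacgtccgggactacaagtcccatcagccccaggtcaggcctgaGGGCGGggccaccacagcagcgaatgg
Acacb: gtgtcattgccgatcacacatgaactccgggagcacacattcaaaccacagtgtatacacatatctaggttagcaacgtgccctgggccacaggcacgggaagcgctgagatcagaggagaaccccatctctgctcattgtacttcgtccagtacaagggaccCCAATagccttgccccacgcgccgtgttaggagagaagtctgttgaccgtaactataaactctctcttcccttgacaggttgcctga

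Fasn had 3 matches to the CCAAT box, starting 90, 62 and 59 bases before the start, of which the last 2 overlap on opposite strands, and Thrsp had 2, at 79 and 52. Acacb had 1, at 87, while Acly had none and instead carried 4 GC boxes, at 117, 88, 76 and 27. The table held 13 start sites for 9 of the 10 genes; Scd1 was the exception. A CCAAT match was present before at least 1 start of 6 of these 9 genes (Acacb, Fasn, Me1, Mlxipl, Srebf1 and Thrsp) and in 7 of the 13 windows, beside 33.8% of all 32851 windows of this length. Among the 13 windows only those of Fasn and Thrsp held at least 2 matches, as did 10.1% of all windows. GC boxes occurred in 5 of the 13 windows (32.7% of all). The E-box CACGTG and the sterol regulatory element core TCACNCCAC, searched on both strands, each matched 1 window, both of Mlxipl (6.02% and 1.05% of all windows). These matches describe the letters in these windows and show no binding.

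Lists of genes for the steps around the pathway had medians nearer 0 than the 10 genes. Genes supplying citrate, acetate and NADPH had a median log2 ratio of -0.02, with 7 of 14 lower and none past 1.5-fold on the normalized scale. Of all genes, 57.7% were lower on this scale. Taldo1 of the pentose phosphate pathway was at 0.25 (deposited intensity 1677 and 1911), citrate synthase Cs at -0.21 (496 and 408), and Pgls, the lactonase of the same NADPH-yielding pathway, at -0.21 (484 and 400). Other elongases, desaturases and partners had a median of 0.00 over 18 genes, 9 of them lower. Mid1ip1 was the 1 gene past 1.5-fold lower, as were 0.417% of all genes. The ketoacyl reductase Hsd17b12 (0.52, deposited intensity 180 and 272) and the enoyl reductase Tecr (-0.35, 761 and 565), which serve the same elongation cycle, had ratios of opposite sign.

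The machinery that activates SREBP was measured in 9 genes with LXR and its partners, with a median of -0.10. Of these 9 genes 6 were lower, beside 57.7% of all genes. Insig1, itself an SREBP target that retains the precursor in the endoplasmic reticulum, had the ratio farthest from 0 (-0.39, deposited intensity 146 and 99). The protease Mbtps1 (-0.15) and Insig2 (-0.13) followed. Nr1h3, the liver X receptor that induces Srebf1, had nearly equal intensities (681 and 682). Cholesterol synthesis, driven by the related factor SREBP-2, had a median of -0.03 over 16 genes with 9 lower. Mvd was the 1 gene of that list past 1.5-fold lower (-0.60, 149 and 82), as were 0.417% of all genes. Stard4 had a ratio of -0.32 and Sc5d one of 0.31.

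Partners and carbohydrate-responsive genes of the ChREBP list had a median of -0.04, with 8 of 11 lower and none past 1.5-fold on the normalized scale. Of all genes, 57.7% were lower on this scale. In the deposited values Mlx was past 1.5-fold lower (log2 ratio -0.63). The fructose kinase Khk (-0.48, deposited intensity 5281 and 3541) and Mlx, the obligate dimer partner of ChREBP (-0.46, 177 and 114), were close to Mlxipl itself (-0.48), whereas glycogen synthase Gys2 was at 0.47 (464 and 630). Tkfc (-0.42, 513 and 360) and G6pc (-0.42, 1519 and 1088) were also lower, while 3 genes of the list were higher. Pklr, the liver pyruvate kinase and a classical ChREBP target, was dim (10 and 9). In triglyceride assembly, the median was -0.03 with 7 of 11 lower. The acyltransferases Agpat2 (-0.53, 823 and 528) and Gpat4 (0.35, 110 and 150) and the lipid transfer protein Mttp (-0.42, 625 and 433) had the ratios farthest from 0. In the deposited values Agpat2 was past 1.5-fold lower (log2 ratio -0.64).

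**Figure D3:**
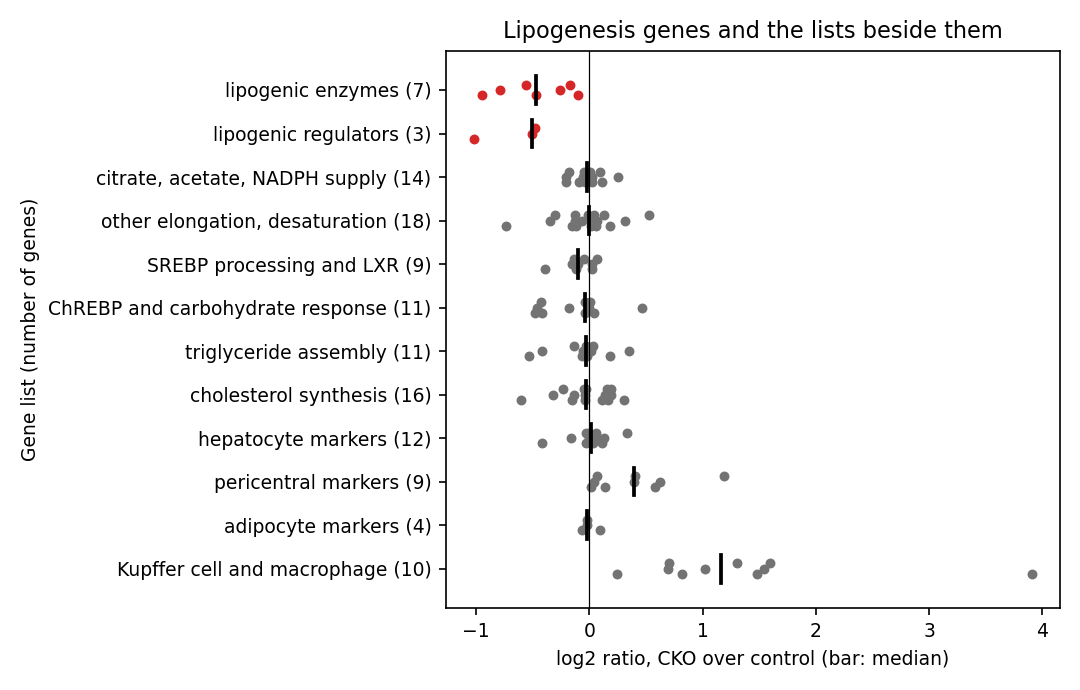
Log2 ratio of CKO over control (normalized scale) of each gene above background in the lipogenic enzymes and regulators (red) and in 10 lists beside them (grey), with the number of genes in brackets and a black bar at the median. The red medians are -0.47 and -0.51, the lists of neighbouring metabolism lie between -0.10 and 0.00, and the Kupffer cell and macrophage list has a median of 1.16.

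Marker genes of liver cell types were read beside these values. Hepatocyte markers had a median log2 ratio of 0.02 over 12 genes on the normalized scale, with 4 lower and 6 higher. The other 2 had the same normalized value on both arrays but lower deposited intensities in CKO liver. The hepatocyte median was -0.09 in the deposited values, -0.12 with the local background column and -0.03 with median scaling. Tat (-0.42), Hnf4a (0.33) and Apob (-0.16) had the ratios farthest from 0. The summed deposited intensity of the hepatocyte markers was 255246 in control and 237644 in CKO liver. On the normalized scale, pericentral hepatocyte markers were higher in 9 of 9 genes (median 0.40; 42.2% of all genes were higher), and periportal markers in 4 of 6 (median 0.21). The pericentral median was 0.05 with the local background column and 0.14 with the brightest probe of each gene, and Cyp2e1 (-0.07) and Cyp1a2 (-0.0098) were lower in the deposited values. Kupffer cell and macrophage markers were higher in 10 of 10 genes, 9 of them at least 1.5-fold (1.7% of all genes), with a median of 1.16. That median was 0.52 with the local background column, where Clec4f (-0.0072) and Vsig4 (-0.10) were below 0, and 1.57 with plain subtraction. Their summed intensity was 2040 in control and 6707 in CKO liver, and Adgre1 was above background on the CKO array only. Of 7 endothelial markers 5 were lower (57.7% of all genes were), with a median of -0.35 and summed intensities of 1284 and 854. The endothelial median was -0.10 with the local background column and -0.57 in the deposited values. Adipocytes also express this pathway, and 4 of the 8 adipocyte markers on the array were above background on both arrays. Their summed deposited intensity was 140 and 141, where 3 of the 8 had no deposited value on either array. Most of the sum came from Fabp4 (115 and 124), a fatty acid-binding protein that macrophages and endothelial cells also express. Plin1 read 8 and 7, and Adipoq and Lep were not above background on either array. The part of these cell types in the lipogenic values was not tested.

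Tnfaip3, the floxed gene, had deposited intensities of 41 and 38 and a log2 ratio of -0.07. Whether its probe lies in the deleted part is not known, so this value does not check the label. Twist2 had 239 and 172 and a ratio of -0.37. The mean of the blank spots was 67.2 (SD 1.17) and 69.3 (SD 1.45) on the control and CKO arrays, and 73.8% and 73.6% of gene probes exceeded the blank mean by more than 2 SD. Spots of the positive controls varied by 0.140 to 0.197 (SD of log2), which measures error between spots of 1 array only.

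The handling of background changed the sign of 3 genes. With the scanner's local background column in place of the blank spots, Acly had a log2 ratio of 0.17, Elovl6 one of 0.28 and Srebf1 one of 0.15, while Fasn was at -1.69, Thrsp at -1.17, Scd1 at -1.01, Mlxipl at -0.92, Me1 at -0.41, Acaca at -0.30 and Acacb at -0.19. Over gene spots brighter than 1000 the local column amounted to a median share of 0.752 of the spot's own signal in control and 0.582 in CKO liver, and it correlated across gene spots with the log2 signal (r = 0.988 and 0.972, a correlation across spots that are not independent replicates). For the Elovl6 spot it was a share of 0.995 of the signal in control and 0.858 in CKO liver. For the Fasn spot the share was 0.890 in control and 1.02 in CKO liver. The CKO spot of Fasn thus did not exceed its local background, which limits the value of -1.69. Under the other 9 settings all 10 genes were lower, as were 39.9% to 57.8% of all genes. Among these settings, the filters on dim probes and the brightest probe could not change the values of the 10 genes. Of the genes named from the surrounding lists, Cs (0.98), Mbtps1 (0.53), Insig2 (0.83), Stard4 (0.15), Mlx (0.19), Gpat4 (-0.21) and Mttp (0.48) also changed sign with the local background column.

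**Figure D4:**
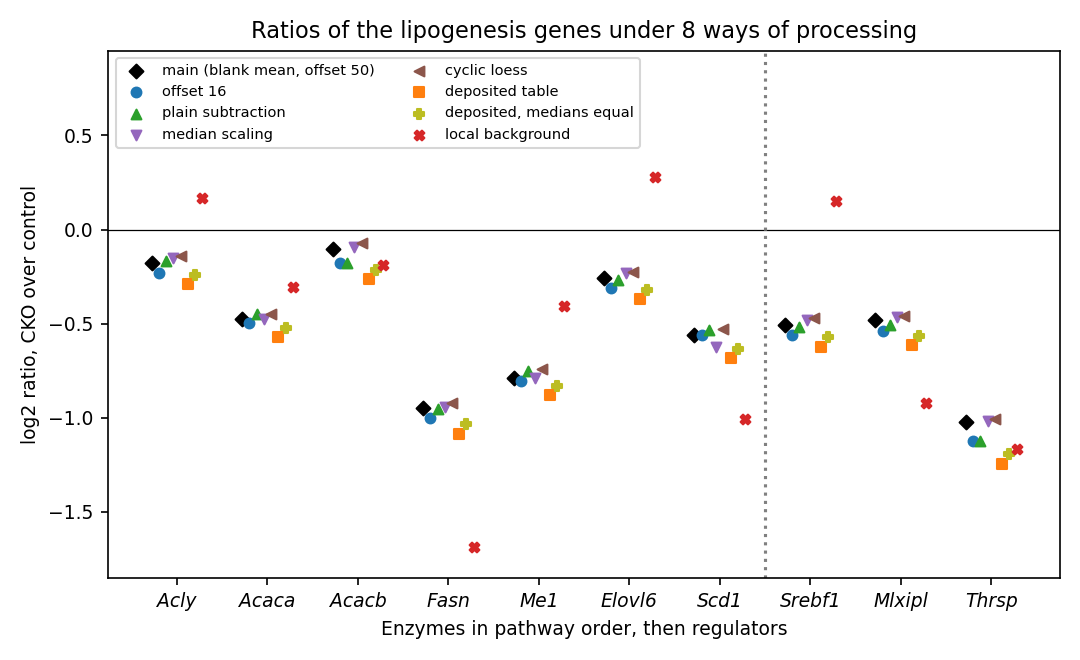
Log2 ratio of CKO over control for each of the 10 genes under 8 ways of processing the same 2 arrays, with the enzymes in pathway order left of the dotted line. All markers lie below 0 except the local background values of Acly (0.17), Elovl6 (0.28) and Srebf1 (0.15). The lowest is the local background value of Fasn (-1.69), whose CKO spot did not exceed its local background.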

How the data were processed

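Liver RNA of 1 control (Twist2-Cre) and 1 CKO (Twist2-Cre/A20fl/fl) sample was amplified, coupled to Cy5 and hybridised, per the labels' protocols. Per the file headers, the scanner files hold median spot intensity and local background intensity, combined over 3 gains. How the authors made the deposited table of intensity values is not stated in the sources used here; bright entries equal the spot minus the blank mean times 0.859 (control) and 0.825 (CKO).

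Intensities were corrected with normexp against the blank spots' mean (offset 50; limma 3.58.1, R 4.3.3), control and flagged spots (4 and 0) were left out, and arrays were quantile-normalized on the log2 scale. Spots of a probe, then probes of a gene, were averaged. Of 23469 gene probes, 20686 had 1 symbol, 0 several and 2783 none; 20552 Entrez IDs matched RefSeq (GRCm38.p6). A probe was above background beyond the blank mean plus 2 SD. Genes were compared with those of their own level in 20 classes. The procedure was tested on simulated data. The alternatives tried changed the background, offset, normalization between arrays, source of the values, filter on dim probes and choice of probe.

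Members and lists were chosen with earlier results of these data known. Named genes were all 10 members, Tnfaip3, Twist2 and up to 3 genes with the largest absolute ratios of each list. Some genes fall outside this rule and were named after their values were seen. They are Scd2, Scd3, Nr1h3, Pklr, Tkfc, G6pc, Adgre1, Adipoq, Lep, Cyp2e1, Cyp1a2, Clec4f, Vsig4, Abcg5 and Abcg8. With 2 arrays, likeness of pattern between genes was not measured. Genome coordinates are given only with RefSeq sequences, since the files name no build.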

Additional observations from a re-analysis of the deposited data

How the results depend on the processing

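The count of lower genes was 10 of 10 under 9 of 10 alternatives, where 39.9% to 57.8% of all genes were lower. It was 7 with the local background column, where 59.2% of all genes were lower. Among the 9, the filters on dim probes and the choice of the brightest probe could not change the count. The median log2 ratio of the 10 genes was -0.36 with the local background column and -0.62 in the deposited values as they stand. The count at least 1.5-fold lower was 6 in the deposited values (3.63% of all genes). That at least 2-fold lower was 3 with the local background column (1.39% of all genes) and 2 in the deposited values (0.728%). It was also 2 in the deposited values with equal medians (0.368%). The 3 genes with the local background column include Fasn, whose CKO spot did not exceed its local background. The cause of these differences between settings was not tested. With plain subtraction and no offset the counts were 3 (1.57% of all genes) and 1 (0.311% of all genes). Plain subtraction, an offset of 16, median scaling and cyclic loess kept the median between -0.55 and -0.46. Under these settings each of the 10 genes moved by no more than the spread of genes of its level. Other filters on dim probes and the brightest probe left the 10 values unchanged, since each gene has 1 probe, above background on both arrays. Leaving out a replicate was not possible with 1 array per genotype. No paired analysis was possible because each genotype has 1 sample. Low signal over background limits Acacb most, at a spot intensity of 95.3 and 93.0 against blank means of 67.2 and 69.3.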

Other observations

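Other targets of the liver X receptor, which also induces Srebf1, had ratios above 0. All 5 measured genes of cholesterol export and phospholipid remodelling above background were higher on the normalized scale, with a median log2 ratio of 0.07, where 42.2% of all genes were higher. The cholesterol exporter Abcg1 had the largest ratio (0.56, deposited intensity 30 and 66), followed by Abca1 (0.14, 46 and 55) and Lpcat3 (0.07, 234 and 245). Abcg8 (0.04) and Abcg5 (0.03) were near 0. Abcg5 was lower in the deposited values (727 and 716), and Lpcat3 (-0.06) and Abcg8 (-0.0077) were below 0 with the local background column. Abcg1 and Abca1 are also expressed by macrophages, whose markers were higher in the CKO liver, and the part of those cells was not tested.

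Genes of insulin action and the fasting response had a median of 0.01 over 14 genes, 6 of them lower (57.7% of all genes were). Pck1, the gluconeogenic carboxykinase, was at 0.57 (deposited intensity 4584 and 6276), and Cpt1a, the mitochondrial carnitine transferase that malonyl-CoA inhibits, had one of 0.44 (910 and 1193), or -0.15 with the local background column. Creb3l3, a fasting-induced transcription factor of liver, had a ratio of 0.19 (1368 and 1520). Stellate cell markers were dim and had a median of 0.00 over 8 genes, 4 of them lower. Among pericentral genes, the ammonium transporter Rhbg (1.19, 237 and 581), Oat (0.63) and glutamine synthetase Glul (0.58) had the largest ratios, and Rhbg was at -0.93 with the local background column.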
